A study of Mus musculus with 4 samples.

Results

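The genes described here are 9 complement components and regulators: C3, C2, C4b, C1s, C1ra, Cfb, Cfd, Cd55 and Cd59a. They were taken by gene name as the array annotation gives it, which found 14 probes for the 9 genes among 41174 probes that were not controls and 28146 distinct gene names. The study asked which genes depend on the glucocorticoid receptor (GR, gene Nr3c1) when no hormone is bound to it. EPH-4 cells, a non-malignant mouse mammary epithelial line, had been stably transfected either with the empty vector H1-2 (line EV-50) or with a short hairpin RNA vector against GR (line shGR-19). Both lines carried a puromycin resistance marker, were kept in 2 µg/ml puromycin and were grown without glucocorticoid. Each line is 1 selected clone, so a difference between the lines cannot be told apart from a difference between 2 clones. RNA of each line was hybridized to 2 single-colour Agilent arrays of 60-base probes, with 300 ng RNA labelled for each. The labels do not say whether the duplicates were separate cultures, and p-values measure only the spread between these arrays, which may be technical. In bulk RNA, fewer cells of a type and less RNA per cell cannot be told apart.

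Complement is a set of plasma and membrane proteins that act as a cascade of proteases. C3 is the component at which its routes meet: in the classical route C1r activates C1s, which cleaves C4 and C2, and in the alternative route factor D (Cfd) cleaves factor B (Cfb). CD55 speeds the decay of the enzymes that cleave C3, and CD59 blocks the assembly of the membrane pore. The liver makes most plasma complement, and epithelial cells also make some components, above all C3.

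The sequences behind the values are the array's own probes and, for the genes that passed the test, the stretch just before the transcription start. The 60-base probes of C3 (the dimmer of its pair), C1s (the dimmer of its pair), Cfb and C4b are shown. Of these only the C3 probe was called below, and the brighter C3 probe and the C1ra probe, also called, are not shown. On mm9 they map to the minus strand of chr17:57364538-57364695 (C3, across a splice junction), chr6:124481467-124481526 (C1s), chr17:34993502-34993858 (Cfb, across a junction) and chr17:34866361-34866420 (C4b), and they read, 5′ to 3′:
C3 probe: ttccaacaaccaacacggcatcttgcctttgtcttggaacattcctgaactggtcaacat
C1s probe: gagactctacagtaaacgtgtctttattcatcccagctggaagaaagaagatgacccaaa
Cfb probe: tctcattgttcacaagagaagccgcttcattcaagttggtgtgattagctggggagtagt
C4b probe: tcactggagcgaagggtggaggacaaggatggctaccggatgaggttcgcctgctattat

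RefSeq upstream sequences (GRCm38.p6) were on hand for 5 of the 9 genes. Those of C3 and C1ra, the genes with a called difference, are the 250 bases before the start, at chr17:57228137-57228386 on the minus strand and chr6:124512371-124512620 on the plus strand. Capitals mark a match to the motif TTGCNNAA, the kind bound by C/EBP factors.
C3 upstream sequence: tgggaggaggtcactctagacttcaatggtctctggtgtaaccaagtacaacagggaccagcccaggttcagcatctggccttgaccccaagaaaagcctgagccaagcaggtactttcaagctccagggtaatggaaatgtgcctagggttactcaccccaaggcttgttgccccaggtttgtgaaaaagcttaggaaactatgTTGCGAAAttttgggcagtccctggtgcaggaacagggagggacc
C1ra upstream sequence: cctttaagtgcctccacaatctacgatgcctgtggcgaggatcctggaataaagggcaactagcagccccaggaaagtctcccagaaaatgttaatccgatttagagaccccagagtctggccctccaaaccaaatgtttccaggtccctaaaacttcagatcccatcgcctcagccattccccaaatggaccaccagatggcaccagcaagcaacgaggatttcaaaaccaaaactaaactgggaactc

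Motifs were searched on both strands of these windows. TTGCNNAA stood 45 to 38 bases before the start of C3, and 9.56% of all 32851 upstream windows held it. Cd59a held a motif like the interferon-stimulated response element, which 2.98% of all windows held. The palindromic glucocorticoid response element (0.387% of all windows), its single arm AGAACA (16.1%), which can lie inside the palindrome, an NF-kB-like motif (1.41%) and the STAT-like TTCNNNGAA (7.02%) were not among the letters of the 5 windows. A match is a description of letters and not of a bound site.

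The same samples come as 2 sets of values that do not show the same differences, and the members are therefore given from both. The scanner files gave 4 arrays, called here by their labelled line and replicate, and their values are log2 signals scaled to each array's 75th percentile. Over 21173 probes well above background on all of them, the replicate 1 arrays of EV-50 and shGR-19 differed from each other by an SD of only 0.225, less than the duplicates of EV-50 (0.616) or of shGR-19 (0.705), and the replicate 2 arrays differed by an SD of 0.513. In the authors' table of log2 values, centred on each probe's median, the duplicates differed by an SD of 0.205 and 0.210 and the lines by 0.532 and 0.542. The line difference in that table had a correlation across probes of 0.911 with the scanner difference of the replicate 2 pair and of 0.043 with that of the replicate 1 pair; these probes share their arrays and are not independent. Whether a replicate 1 scanner file holds another sample than its label says could not be settled from these files. If so, the pooled scanner differences given below, and their adjusted p of 1.0, would not describe the 2 lines. Nr3c1, the targeted gene, shows the same split. Its brightest probe gave 1.81 and 1.92 for EV-50 replicates 1 and 2, 1.46 for the array labelled shGR-19 replicate 1 and -0.03 for shGR-19 replicate 2, a difference of -0.35 between the replicate 1 arrays and of -1.95 between the replicate 2 arrays. In the table it was lower in shGR-19 by a log2 difference of -1.94 (standard error 0.048, adjusted p = 0.00216, limma), and the other 3 probes of Nr3c1 were called lower too.

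C3 and C1ra were lower in GR-depleted cells in the value table, and none of the 9 genes was called higher. With an adjusted p below 0.01 as the call, 3 of the 10 probes that could be tested were lower in shGR-19, both probes of C3 and the probe of C1ra, each by more than 2-fold; over all 24439 probes tested 6.04% were called lower and 5.53% higher, and 2.39% were lower and 1.87% higher by more than 2-fold. The scanner files gave no call for any of these probes, nor for any of the 24439 (0.0%). None of the 10 had an unadjusted p under 0.05 there, against 0.855% of all, while 6 of them did in the table, against 48.4% of all. The median log2 difference of the 10 probes was -0.94 in the table and -0.69 in the scanner files, beside 0.01 and 0.02 for all tested probes. These probes stand for only 7 genes, since C3, C1s and Cd59a each have a pair. With the brightest tested probe of each gene the median was -0.24 in the table and -0.19 in the scanner files. Between the replicate 2 arrays, 5 of the 10, all probes of C3, C1s and C1ra, were more than 2-fold lower in shGR-19, against 3.16% of all tested probes. Between the replicate 1 arrays it was 1 of the 10, against 1.11%. Both shGR-19 values lay below both EV-50 values for 4 of the 10 in the scanner files, beside 6.14% of all, and above them for 0, beside 11.8%. In the table the same held for 6 of the 10 below, beside 35.3%, and 3 above, beside 36.6%. Without any 1 of the 4 columns, 0 of the 10 probes passed, as did 0 of all 24439, so that no probe on the array was called at that size. The differences themselves ran from -2.42 to -2.41 for the brighter C3 probe, from -2.55 to -2.27 for the dimmer and from -1.74 to -1.55 for C1ra.

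**Figure D1:**
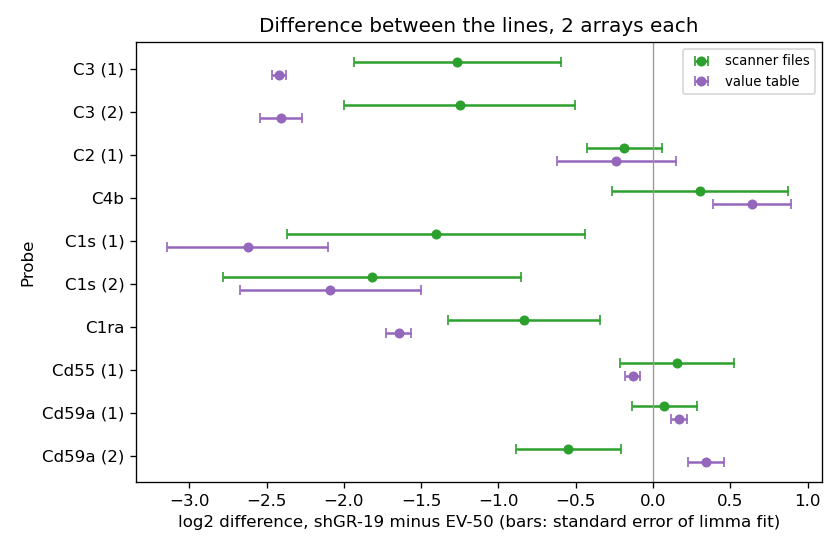
Log2 difference, shGR-19 minus EV-50, of the 10 tested complement probes (vertical axis; a number marks the probe of a gene), from the scanner files (green) and the value table (purple), with points for the limma estimate over 2 arrays a line and bars for its standard error. C3, C1s and C1ra lie to the left in both sets, from -0.84 to -2.62, with wide bars in the scanner files, while C2, C4b, Cd55 and Cd59a lie within 0.64 of 0.

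C3, the central component, was 5.35-fold lower in shGR-19 by the table, whereas on the scanner arrays the gap lay between those of replicate 2. Its brighter probe, at chr17:57343416-57343475 (mm9, minus strand), is printed 10 times on each array. The median signal of its spots was 28252 for EV-50 replicate 1, 53214 for EV-50 replicate 2, 26720 for shGR-19 replicate 1 and 9133 for shGR-19 replicate 2, where 9 spots remained after outliers were removed. Spots on 1 array differed by an SD of 0.064 to 0.100 on the log2 scale, so the spots place the 2 arrays labelled replicate 1 together, EV-50 replicate 2 above them and shGR-19 replicate 2 below them. Spots on an array are repeated readings of 1 sample and not replicates of a line.

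**Figure D2:**
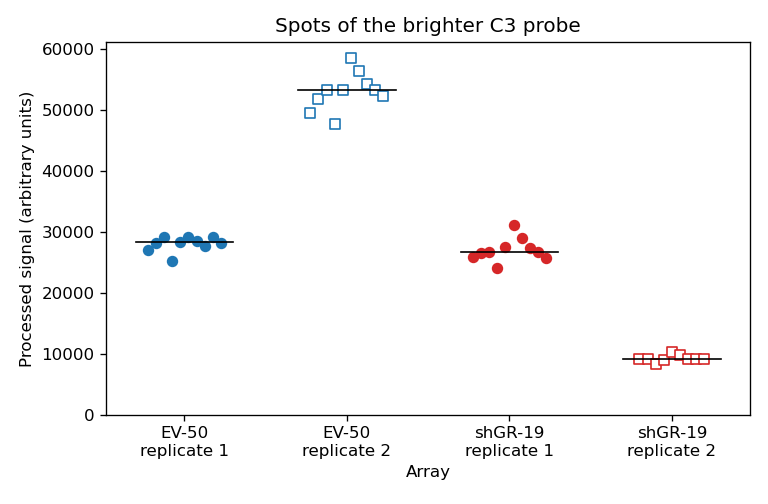
Processed signal (vertical axis, arbitrary units from 0) of the spots of the brighter C3 probe on each of the 4 arrays, with a point for each spot and a black line at the median. The spots of shGR-19 replicate 2 (median 9133) lie below and those of EV-50 replicate 2 (median 53214) above those of the replicate 1 arrays, whose medians are 28252 and 26720.

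As log2 levels, the brighter C3 probe read 5.73 and 6.50 in EV-50 and 5.71 and 3.99 in shGR-19. Both shGR-19 values lay below both EV-50 values, but the difference was -0.02 for the replicate 1 pair and -2.51 for the replicate 2 pair. The fitted difference of -1.27 (standard error 0.67, adjusted p = 1.0, limma) became -0.41 when shGR-19 replicate 2 was left out and -2.12 when shGR-19 replicate 1 was. The same probe in the value table read 1.21 in both EV-50 columns and -1.21 in both shGR-19 columns, with no overlap. That is a log2 difference of -2.42 (standard error 0.045, adjusted p = 0.00173, limma), or 5.35-fold lower.

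The dimmer C3 probe lies further upstream in the transcript and across a junction, and its letters are given above. It read -3.47 and -2.81 in EV-50 and -3.38 and -5.41 in shGR-19, so that the groups overlapped in the scanner files and the replicate 1 pair differed by 0.09 in the other direction. Its table values were 1.27 and 1.09 in EV-50 and -1.37 and -1.09 in shGR-19. The table difference was -2.41 (standard error 0.14, adjusted p = 0.00430, limma), close to that of the brighter probe.

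Among the proteases of the classical route, C1ra (C1r, which activates C1s) passed the test in the table. Its probe at chr6:124473052-124473111 (mm9, plus strand) read -1.84 and -1.43 in EV-50 and -1.85 and -3.10 in shGR-19. The replicate 1 arrays were at the same level, and shGR-19 replicate 2 was the lowest. The table gave 0.95 and 0.77 in EV-50 and -0.80 and -0.77 in shGR-19, a difference of -1.65 (standard error 0.082, adjusted p = 0.00382, limma) or 3.13-fold lower. The scanner difference was -0.84 (standard error 0.49, adjusted p = 1.0, limma).

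C1s, the protease that C1r activates, had table differences as large but with more spread, and neither of its probes passed. The brighter probe, at chr6:124480828-124480887, read -2.09 and -2.10 in EV-50 and -2.11 and -4.89 in shGR-19, so that 3 arrays shared a level and shGR-19 replicate 2 was lower, at a difference of -2.79 from EV-50 replicate 2. Its table values were 0.95 and 1.02 in EV-50 and -0.95 and -2.32 in shGR-19. The difference of -2.62 (standard error 0.52, adjusted p = 0.0334, limma) missed the threshold. The dimmer C1s probe, whose letters are given above, read -2.65 and -3.82 in EV-50 and -3.79 and -6.32 in shGR-19, and on shGR-19 replicate 2 it was not well above background. Its table difference was -2.09 (standard error 0.58, adjusted p = 0.0687, limma), with both shGR-19 columns below both EV-50 columns.

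C4b and C2, the substrates of C1s, did not pass the test in either set of values. C4b read -3.80 and -2.77 in EV-50 and -3.57 and -2.39 in shGR-19, and the duplicates of a line lay further apart than the lines. Its table difference was 0.64 (standard error 0.25, adjusted p = 0.136, limma), from -0.54 and -0.09 in EV-50 to 0.57 and 0.09 in shGR-19. C4b has the close paralog C4a, whose probe had a table difference of 0.00 (standard error 0.60) and scanner differences of 0.07 and 0.01; whether either probe also detects the other gene's RNA was not tested. The brighter C2 probe read -3.90 and -4.29 in EV-50 and -4.25 and -4.31 in shGR-19, with a table difference of -0.24 (standard error 0.39, adjusted p = 0.672, limma). The dimmer C2 probe was well above background on no array.

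Both factors of the alternative route were too dim to test. Cfb, whose probe is printed above, read -6.58 and -5.66 in EV-50 and -6.87 and -7.48 in shGR-19, and it was well above background on none of the 4 arrays. The value table nevertheless listed 0.91 and 0.83 in EV-50 and -0.83 and -0.90 in shGR-19, a difference of -1.73 with no overlap. Cfd likewise was well above background on no array, and its table values were 0.56 and -2.15 in EV-50 and -0.42 and 0.42 in shGR-19, which overlap.

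**Figure D3:**
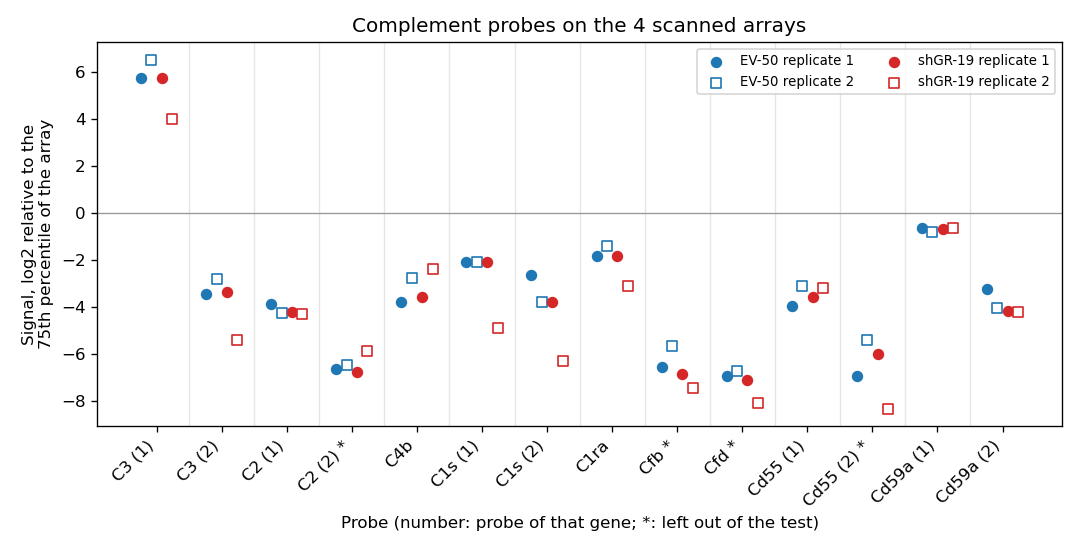
Log2 signal of each complement probe, scaled to its array's 75th percentile (vertical axis), on the 4 scanned arrays, with blue for EV-50, red for shGR-19, filled circles for replicate 1 and open squares for replicate 2; levels of different probes are not comparable. For C3, C1s and C1ra the open red square, shGR-19 replicate 2, lies lowest. It is also lowest for the tested C2 probe (-4.31) and the dimmer Cd59a probe (-4.22), close to shGR-19 replicate 1 (-4.25 and -4.19). Among probes left out of the test it is lowest for Cfb (-7.48), Cfd (-8.10) and the other Cd55 probe (-8.34). For the dimmer C2 probe, also left out, it is the highest (-5.90). For the brighter probes of Cd55 and Cd59a it is not the lowest, and for C4b, at -2.39, it is the highest.

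The membrane regulators did not pass the test either, and their tested probes differed by at most 0.34 in the table. Cd55, which dissociates the C3-cleaving enzymes, read -3.96 and -3.14 in EV-50 and -3.59 and -3.19 in shGR-19 with its brighter probe, and its table difference was -0.13 (standard error 0.052, adjusted p = 0.133, limma). Its scanner difference had the opposite sign, 0.16 (standard error 0.37), and the groups overlapped. The other probe named Cd55, at chr1:132288024-132288083 (mm9), lies within the span of a probe for the neighbouring paralog Daf2, at chr1:132285273-132307210. It was well above background on EV-50 replicate 2 alone, was not tested, and had a table difference of 1.97 against -2.91 between the replicate 2 scanner arrays.

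Cd59a, the pore inhibitor, had 2 tested probes. Its brighter probe read -0.67 and -0.84 in EV-50 and -0.69 and -0.67 in shGR-19, and its table difference was 0.17 (standard error 0.050, adjusted p = 0.0768, limma). The dimmer read -3.26 and -4.06 in EV-50 and -4.19 and -4.22 in shGR-19, a scanner difference of -0.55 (standard error 0.34), whereas its table difference was 0.34 (standard error 0.12, adjusted p = 0.103, limma). The direction of the dimmer probe therefore depends on the set of values.

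**Figure D4:**
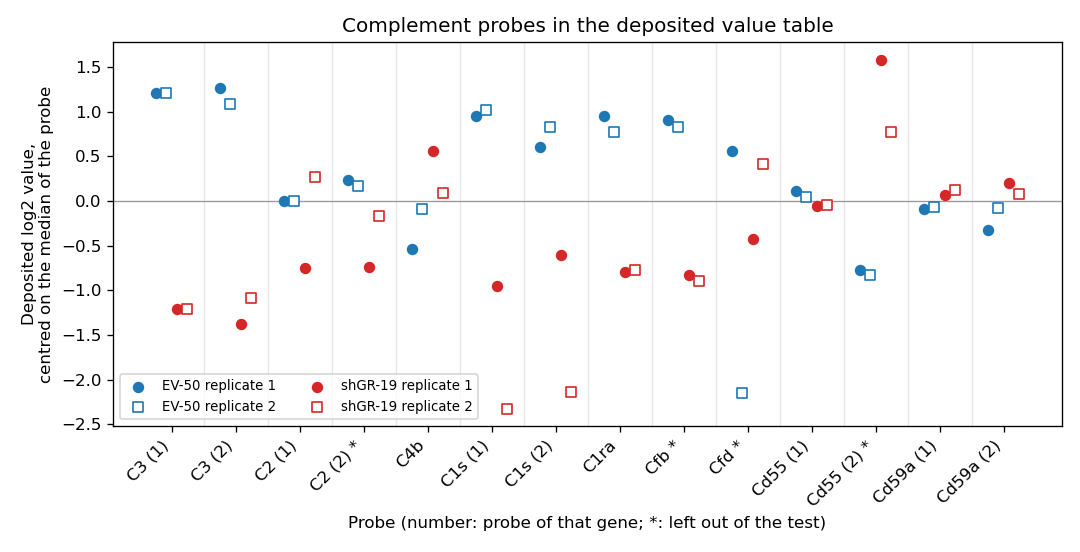
Deposited log2 value of each complement probe, centred on the median of the probe (vertical axis), in the 4 columns of the value table, with the same colours and markers for lines and replicates, and an asterisk for a probe left out of the test. Both C3 probes, C1ra and Cfb separate into EV-50 near 0.77 to 1.27 and shGR-19 near -0.77 to -1.37, with close duplicates, and C1s separates with shGR-19 replicate 2 at -2.32 and -2.14.

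Of 48 other complement genes on the array, 23 could be tested, and 5 were lower and 1 higher in shGR-19 in the table, while 17 were not called and the scanner files called none of the 23. Over all tested probes 6.04% were lower and 5.53% higher. An unadjusted p under 0.05 was found for 1 of the 23 in the scanner files and 10 in the table, where 48.4% of all tested probes had it. The median difference of the 23 was -0.12 in both sets, beside 0.01 for all tested probes in the table. Colec12, a scavenger receptor with a collectin domain, fell by 2.35 (standard error 0.051, adjusted p = 0.00195, limma), and its scanner differences were -0.67 between the replicate 1 arrays and -2.29 between the replicate 2 arrays. C1rb, the paralog of C1ra, fell by 1.59 (standard error 0.077, adjusted p = 0.00365, limma), beside scanner differences of -0.08 and -1.40. Cd93, a receptor of endothelial and myeloid cells with a C-type lectin domain, fell by 1.41, Itgb2, the beta chain of the complement receptor integrins, by 0.75, and C1rl, a protease related to C1r, by 0.71. Between the replicate 1 scanner arrays these 3 differed by -0.10, -0.04 and -0.13, and between the replicate 2 arrays by -1.35, -0.57 and -0.64. Susd4, a membrane protein with complement control domains, was 0.72 higher, beside scanner differences of -0.08 and 0.66.

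The other tested complement genes showed no call. Cr1l (Crry), the rodent membrane regulator, had a table difference of -0.62 (standard error 0.14, adjusted p = 0.0418, limma), beside scanner differences of 0.09 and -0.66. Clu, an extracellular chaperone that binds the forming pore, had a table difference of -0.12 and scanner differences of -0.03 and -0.21. Its scanner levels were 2.29 and 5.80 in EV-50 and 2.27 and 5.59 in shGR-19. On these arrays the replicate numbers therefore lay much further apart than the lines. Cfp, which stabilizes the alternative enzyme, had -0.05 in the table and 0.16 and 0.00 on the scanner arrays. The 25 genes that could not be tested included the C1 inhibitor Serping1, the late components C7, C8a, C8b, C8g and C9, and Cd46 and Cd59b.

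C1s and C1ra lie side by side on chromosome 6, their probes 7717 bases apart, and the genes around them were examined. Within 500 kb on either side, 25 other genes could be tested in the table, of which 5 were lower and 1 higher, against 6.04% and 5.53% of all tested probes. Their median was -0.32, and 18 of them had a negative difference. C1rb, Clstn3 (-1.30), C1rl, Cdca3 (-0.71) and Usp5 (-0.63) were the 5 that fell, and Grcc10 was higher by 0.97. C1rb and C1rl were already counted among the other complement genes above. The pooled scanner differences were -0.52 for Clstn3, -0.40 for Cdca3, -0.27 for Usp5 and 0.36 for Grcc10, and the scanner median of the 25 was -0.19. Around C3 on chromosome 17, 1 gene of 22 was lower and 1 higher, with medians of 0.00 in the table and -0.03 in the scanner files. Around C2, Cfb and C4b, in the major histocompatibility complex, 4 of 61 were lower and 2 higher, with medians of 0.00 and 0.02. That the C1s neighbourhood differs from the rest of the array was not tested.

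**Figure D5:**
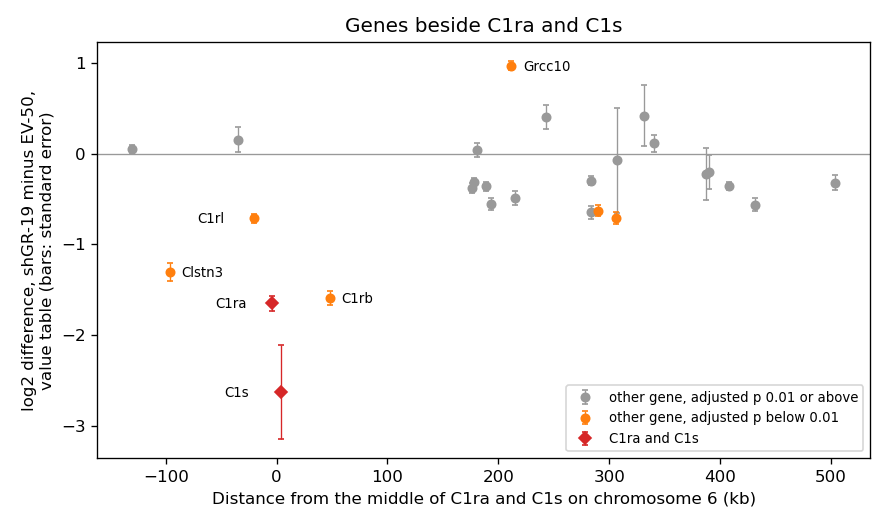
Table difference, shGR-19 minus EV-50 on the log2 scale with its standard error (vertical axis), of the genes within 500 kb of C1ra and C1s against distance in kb (horizontal axis), with red diamonds for C1ra and C1s, orange for other genes with adjusted p below 0.01 and grey for the rest. C1ra, C1s (not called, adjusted p = 0.0334 from limma), C1rb, C1rl and Clstn3 lie between -0.71 and -2.62, and Grcc10 at 0.97 is the gene called higher.

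Receptors and transcription factors known to act on complement genes were read from the same fit. Of 28 tested, 7 were lower and 3 higher in the table, against 6.04% and 5.53% of all tested probes, and the scanner files called none. The 28 include Nr3c1, the gene that the hairpin targets, which counts among the 7 lower and in the median. The median table difference of the 28 was -0.19, beside 0.01 for all tested probes. Irf7, Irf9 and Stat2, which carry interferon signals, were lower by -3.80, -1.66 and -1.04 (adjusted p = 0.00129, 0.00331 and 0.00596, limma). Irf8, an interferon regulatory factor of myeloid cells, was higher by 2.70 and Cebpd, an acute-phase transcription factor, by 1.84 (adjusted p = 0.00353 and 0.00223, limma). Each of these 5 differed less between the replicate 1 scanner arrays, by -0.27, -0.27, -0.08, 0.04 and 0.10 in the same order, than between the replicate 2 arrays, by -3.78, -1.58, -1.08, 2.69 and 1.81.

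The genes whose pattern over the 4 scanner and 4 table values was most like that of the brighter C3 probe were Tmsb15b1-Tmsb15b2, Cmtm8, Pmp22, Gsdmd and Fhod3. Likeness was the root mean square difference over these 8 values, each centred within its set, and ran from 0.055 to 0.147. Their table differences ran from -2.12 for Gsdmd to -2.65 for Fhod3. All 5 differed by -0.21 to 0.03 between the replicate 1 scanner arrays and by -2.19 to -2.55 between the replicate 2 arrays.

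The label of the cells was checked against markers. Of 9 epithelial markers on the array 8 could be tested, none was called, and their summed log2 level was 9.72 to 9.94 in EV-50 and 9.64 to 9.99 in shGR-19. The marker that could not be tested, the keratin Krt19, was well above background on 1 array of each line and had a table difference of -2.76 and scanner differences of -0.05 between the replicate 1 and -3.70 between the replicate 2 arrays. The leukocyte markers Ptprc, Emr1 and Itgam were well above background on no array, yet 2 of the 6 leukocyte genes tested, Aif1 (0.71) and Lyz2 (0.76), were higher in shGR-19 in the table, while between the replicate 2 scanner arrays Aif1 differed by 0.40 and Lyz2 by -0.30. The list summed to between -0.50 and -0.25 in EV-50 and between -0.29 and -0.26 in shGR-19. Of 8 fibroblast markers, 2 could be tested, Col1a2 and Pdgfra, and both were higher in the table, by 3.27 and 1.17, beside 3.37 and 1.16 between the replicate 2 scanner arrays. Their summed level was 0.70 and 1.59 in EV-50 and 0.67 and 4.93 in shGR-19. Of the 6 untested, Col1a1 had table differences of 5.10, 5.57 and 3.45 with its 3 probes, each well above background on 1 shGR-19 array. The probes with 5.10 and 5.57 were also well above background on 1 EV-50 array. Col3a1 had 1.65 with its probe that was well above background on 1 shGR-19 array, and -0.27 and -0.40 with probes above it on none. Lum had -0.59 and was above background on 1 shGR-19 array, Thy1 was above it on 1 EV-50 array, and Dcn and Fap on none. The part of these genes in the complement differences was not tested.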

How the data were processed

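The authors deposited the scanner output of 4 arrays (Agilent Feature Extraction 10.5.1.1, per the file headers), from which the background-subtracted spot intensity and the spot flags were used, and a GeneSpring table of log2 values, in which all 41265 rows have a median of 0. The table's scaling between arrays is not given in the sources used here; the medians of its columns over probes above background on all arrays ran from -0.01 to 0.01. The 4 arrays shared 1 slide and 1 scan. Each carried 43379 spots that were not controls, of which 74 to 139 were outliers and left out, 23290 to 27358 were well above background and none was saturated. The number of arrays limits the precision.

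Log2 of the processed signal minus the array's 75th percentile was taken and spots of the same probe were averaged. A probe was tested if both arrays of EV-50 or both of shGR-19 had it well above background, which left 24439. Both sets of values were fitted with limma 3.58.1 (R 4.3.3, statmod 1.5.0; lmFit, eBayes, Benjamini-Hochberg over these probes), and a call is an adjusted p below 0.01. Exact permutation tests, whose smallest p here is 0.333, were not used. A gene on a list is read from its brightest tested probe. The members, lists and rules were chosen with earlier results of these data known. Named genes were all member probes, Nr3c1, up to 6 called genes of each list by size, and the 5 genes most like C3; genes named without a call were chosen after their values were seen. Coordinates are mm9 from the array annotation unless RefSeq is named. Tested on simulated data with 200 changed probes, the fit recovered 138 of 200 with the table's spread over 24439 probes, with 0 false calls. With the spread of the scanner files it recovered 0 of 200. The simulated spread was independent between arrays, so these counts do not say how many calls in the real data are right. The alternatives were normexp with an offset of 50, quantile normalization, other filters, an intensity trend with a robust prior, a block for the replicate number, leaving out each array, plain t-tests and other thresholds.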

Additional observations from a re-analysis of the deposited data

How the results depend on the processing

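The number of member probes called was 0 from the scanner files and 3 when the value table was used in their place. In the value table it fell from 3 to 0 with all probes kept and to 1 in a plain t-test after Benjamini-Hochberg adjustment (3 without adjustment), and it was 0 (range 0 to 0) without each array in turn, where 0 of all 24439 probes passed. The other complement genes called there fell from 6 to 1 with all probes kept, to 0 in the adjusted t-test (7 without adjustment), to 0 (range 0 to 0) without each array and to 3 with a 2-fold limit added. For the brighter C3 probe the adjusted p in the table ran from 1.5e-21 to 0.0368 over the alternatives, for the dimmer from 8.2e-12 to 0.0407 and for C1ra from 1.4e-10 to 0.0392, always with a negative difference. The median table difference of the member probes went from -0.94 to -0.44 with all probes kept, and to -0.24 with only probes above background on all 4 arrays, which adds or removes member probes. In the scanner files the sign of several small differences turned: C2 ran from -0.38 to 0.011, C4b from -0.29 to 0.89, Cd55 from -0.25 to 0.57 and the brighter Cd59a probe from -0.012 to 0.16 when 1 array was left out; Cd55 was -0.064 after normexp and -0.13 in the table, and the dimmer Cd59a probe was 0.34 there. C2 in the table ran from -0.75 to 0.27 without 1 array. Why these values moved was not tested.

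With the replicate number as a block, 0 member probes and 0 other complement genes passed in the value table, as did 0 of all 24439 probes. Deviations of samples with the same number from their line's mean correlated at 0.652 in the scanner files and 0.109 in the table. On the scanner arrays, samples with the same number thus varied together. No label ties the numbers to a shared culture or day, and with 2 pairs the source of this was not tested.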

Other observations

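Masp1, a protease of the lectin route, had probes that disagreed. The probe that could be tested had a table difference of 0.14 (adjusted p = 0.803, limma). It was dim, and well above background on both shGR-19 arrays but on no EV-50 array. Another Masp1 probe, left out because it was well above background on only 1 array of each line and named here after its values were seen, read -6.71 and -2.96 in EV-50 and -6.83 and 1.16 in shGR-19 on the scanner arrays, where replicate 2 of shGR-19 was the highest. Its table values were -2.02 and -2.14 in EV-50 and 2.02 and 2.07 in shGR-19. A further untested Masp1 probe, well above background on 1 shGR-19 array alone, had a table difference of 2.06. The remaining Masp1 probe, well above background on no array, had -0.23.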
